A study of Mus musculus with 4 samples.

Results

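The genes described here make cholesterol, sense it and move it inside the cell. They are 28 named mouse genes, of which 19 encode enzymes of synthesis and 9 encode regulators of the pathway or proteins of sterol transport and storage. Each gene was represented by the probe set that carries its symbol alone and has the highest mean over the arrays. The enzyme gene Acat2 and the sterol esterification gene Soat1 had no probe set that met this rule, so 26 genes were measured, 18 enzymes and 8 others. All 26 lay above the level filter and were among the 10501 genes tested.

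RNA came from naive CD4+ T cells (helper T lymphocytes) of the mouse, isolated from spleen and from peripheral and mesenteric lymph nodes and kept in culture for 7 days. In 2 samples human TGFb1 at 1 ng/ml was combined with progesterone at 2000 ng/ml, and 2 samples received the same TGFb1 alone. The T cell activator concanavalin A, a lectin from plants, was present in all 4 at 2.5 ug/ml, so no sample lacked activation or TGFb1. Strain, age, sex and the number of mice behind each sample are not given in the sources used here, and nothing says that replicates came from separate animals, so the p-values measure a spread that may be technical.

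Cholesterol is built from acetyl-CoA by way of mevalonate to farnesyl diphosphate, a branch point from which squalene, lanosterol and finally cholesterol are made. SREBP2, encoded by Srebf2, switches on the genes of this route once its precursor has left the endoplasmic reticulum with the escort protein SCAP, and INSIG proteins hold that complex back when sterol is plentiful. T cells that are driven to divide need sterol for new membrane. Progesterone is also known, from work on other cultured cells, as an inhibitor of cholesterol movement from lysosomes and the plasma membrane to the endoplasmic reticulum.

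With progesterone, 15 of the 26 genes fell and none rose. Genes that fell made up 5.17% of all genes tested, genes that rose 2.99%, and genes changed in either direction 8.16%. The median log2 difference, progesterone minus TGFb1 alone, was -0.82 over the 26 genes, against 0.02 over all genes tested. At an unadjusted p under 0.05 in the same limma fit, 18 were lower and 0 higher. At that cut 1290 of all 10501 genes tested were lower and 1234 higher. With the values as deposited 14 fell and the median was -1.10, beside a median of -0.22 over all genes, of which 145 rose and 794 fell, against 314 and 543 after quantile normalisation. Enzymes had 11 of 18 down with a median of -1.02, and regulators and transport genes had 4 of 8 down with a median of -0.22. In 20 of the 26 genes both progesterone arrays lay below both TGFb1 arrays, an arrangement found in 26.0% of all genes tested, and in 2 genes both lay above them, as in 29.8% of all genes tested. A change was called at an adjusted p under 0.05 by limma, a linear model that shares the estimate of spread across genes, with 2 arrays in each group. Signals are given after quantile normalisation, and differences are on the log2(signal + 16) scale, which makes changes of dim genes look smaller.

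**Figure D1:**
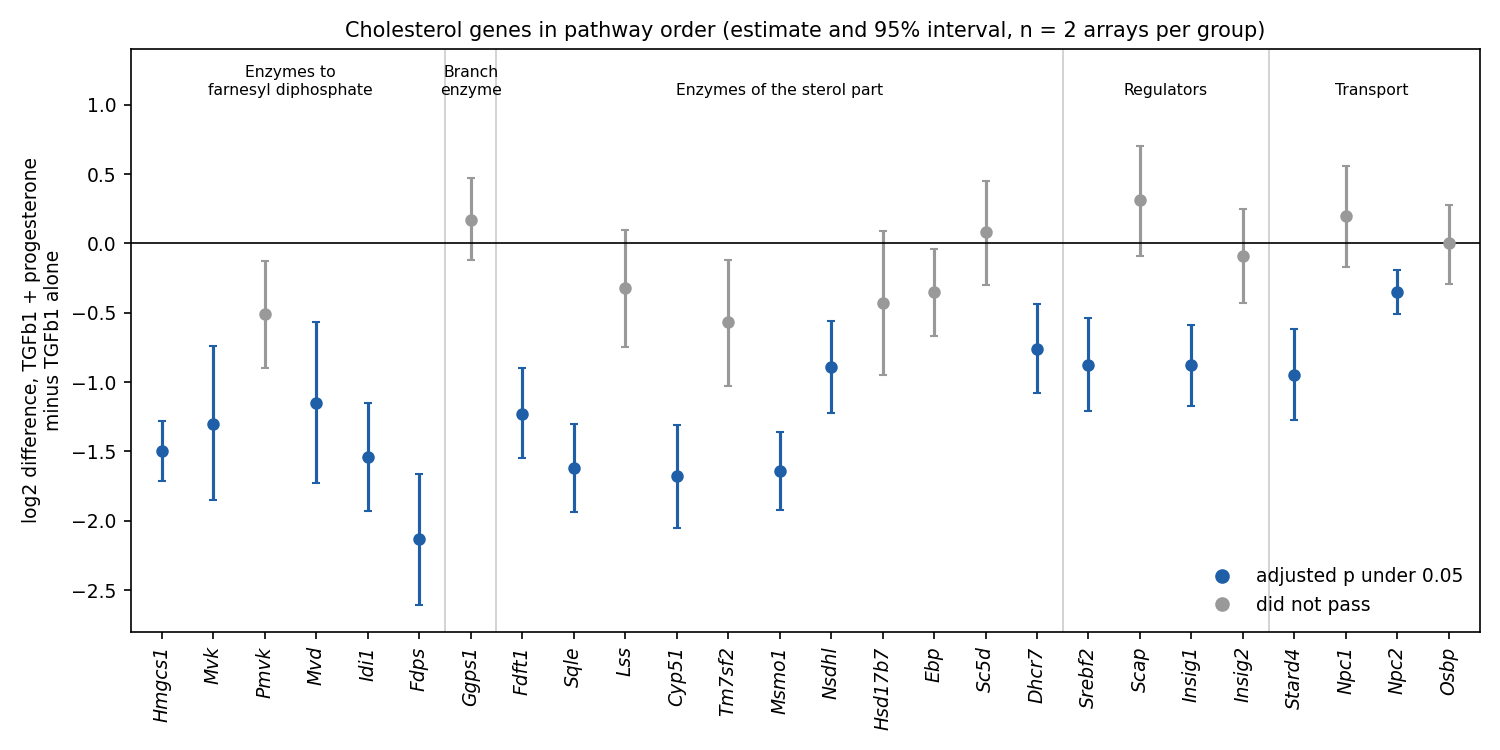
Each point is the log2 difference of a gene, TGFb1 plus progesterone minus TGFb1 alone, with its 95% interval from the limma fit, and genes run in pathway order from left to right (n = 2 arrays per group). The 15 genes that passed lie between -2.13 and -0.35, with Fdps lowest, and the 11 that did not pass lie between -0.57 and 0.31.

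Promoter windows from RefSeq (build GRCm38.p6, 250 bases before to 50 after the annotated start) were found for 21 of the 26 genes. They are shown because SREBP2 is known to act together with NF-Y, which binds CCAAT boxes, and Sp1, which binds GC boxes. The windows of the synthesis genes Hmgcs1, Idi1, Cyp51 and Msmo1 and of the regulator gene Insig1, all of which fell, are set beside that of Sc5d, a late enzyme gene that did not pass. They are written along the strand of the gene, and capitals mark the letters CCAAT and the sterol regulatory element core, TCACNCCAC, read on either strand.
Hmgcs1, chr13:119690101-119690400, plus strand: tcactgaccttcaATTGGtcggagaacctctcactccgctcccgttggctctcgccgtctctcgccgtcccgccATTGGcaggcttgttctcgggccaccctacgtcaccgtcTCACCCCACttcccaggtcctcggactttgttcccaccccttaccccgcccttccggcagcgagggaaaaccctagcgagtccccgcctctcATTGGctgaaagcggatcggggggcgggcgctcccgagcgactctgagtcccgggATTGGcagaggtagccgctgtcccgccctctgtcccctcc
Idi1, chr13:8885356-8885655, plus strand: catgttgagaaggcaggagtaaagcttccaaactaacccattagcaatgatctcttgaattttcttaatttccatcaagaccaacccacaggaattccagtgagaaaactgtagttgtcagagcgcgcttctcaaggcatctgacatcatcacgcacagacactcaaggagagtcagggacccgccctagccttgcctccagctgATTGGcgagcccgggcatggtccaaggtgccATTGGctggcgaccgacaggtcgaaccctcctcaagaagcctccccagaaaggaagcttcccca
Cyp51, chr5:4104648-4104947, minus strand: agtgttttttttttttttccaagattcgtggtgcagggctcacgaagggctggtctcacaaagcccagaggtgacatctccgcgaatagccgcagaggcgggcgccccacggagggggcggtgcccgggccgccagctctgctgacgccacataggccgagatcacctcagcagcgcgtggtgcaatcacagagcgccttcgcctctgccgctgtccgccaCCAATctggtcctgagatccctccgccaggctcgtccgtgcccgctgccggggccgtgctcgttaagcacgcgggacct
Msmo1, chr8:64733529-64733828, minus strand: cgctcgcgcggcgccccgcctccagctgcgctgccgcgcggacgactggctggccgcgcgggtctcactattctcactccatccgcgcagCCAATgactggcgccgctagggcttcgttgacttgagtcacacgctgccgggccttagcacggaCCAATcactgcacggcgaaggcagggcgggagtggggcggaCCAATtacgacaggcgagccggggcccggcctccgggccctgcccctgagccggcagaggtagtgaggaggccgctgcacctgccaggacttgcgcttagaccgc
Insig1, chr5:28071162-28071461, plus strand: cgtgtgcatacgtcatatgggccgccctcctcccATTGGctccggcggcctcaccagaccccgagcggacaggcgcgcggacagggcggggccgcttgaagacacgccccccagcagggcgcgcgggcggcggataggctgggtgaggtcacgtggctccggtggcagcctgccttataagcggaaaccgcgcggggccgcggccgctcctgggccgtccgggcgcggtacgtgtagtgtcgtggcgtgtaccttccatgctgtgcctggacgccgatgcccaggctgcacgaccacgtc
Sc5d, chr9:42264251-42264550, minus strand: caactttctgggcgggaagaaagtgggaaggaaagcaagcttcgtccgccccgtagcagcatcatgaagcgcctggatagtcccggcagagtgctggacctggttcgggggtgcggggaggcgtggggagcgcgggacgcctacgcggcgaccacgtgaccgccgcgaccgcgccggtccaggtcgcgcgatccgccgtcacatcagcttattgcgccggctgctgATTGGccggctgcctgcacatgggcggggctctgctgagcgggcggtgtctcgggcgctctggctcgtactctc

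The letters TCACNCCAC were found in 1 of the 27 windows of the measured genes, that of Hmgcs1, from -137 to -129 counted from the start. They were found in 1.24% of all 32851 windows searched, which leave out chromosome 18. CCAAT was found in 20 of the 27 windows, and in 37.4% of all windows and 37.4% of the windows of genes tested. By gene, 20 of the 21 with a window held CCAAT in at least 1 of their windows, Scap being the exception, against 42.8% of all genes tested that had a window. All 11 genes that fell and had a window held it, and so did 9 of 10 that did not pass, so the box was common to both classes. GGGCGG, the core of the GC box, was found in 22 of the 27 windows, in 62.7% of the windows of genes tested and in 35.7% of all windows. Both strands were searched and no match of 1 motif overlapped another in these 27 windows. These matches describe letters in a short window and do not show binding. Only exact letters were searched, so a window without a match is not shown to lack a sterol regulatory element.

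**Figure D2:**
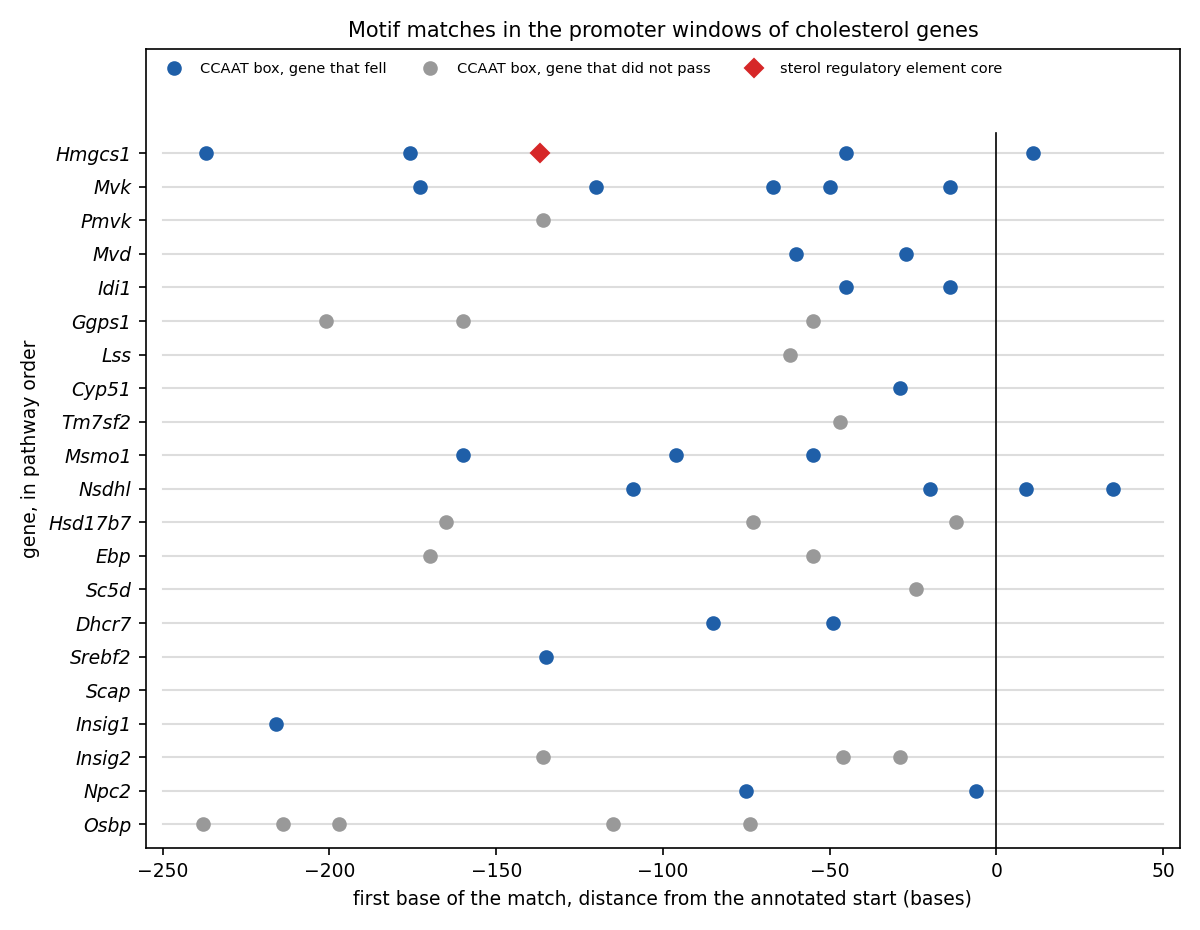
Each row is the promoter window of a gene, with all annotated windows of a gene drawn on 1 row, and the horizontal axis is the distance in bases of a match from the annotated start. Of 47 CCAAT matches, 39 lie between 200 bases before the start and the start itself, in genes that fell (blue) as in genes that did not pass (grey), and the diamond is the element core in Hmgcs1.

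The first part of the pathway, from acetyl-CoA to farnesyl diphosphate, had 5 of 6 measured genes down, with a median of -1.40. Hmgcs1 encodes the cytosolic HMG-CoA synthase, which makes the precursor of mevalonate. Its signal was 771 and 721 in the progesterone arrays, against 2205 and 2068 in the TGFb1 arrays. Both progesterone arrays lay far below both others, and the gene fell by 1.498 ± 0.093 (SE, n = 2 per group), 2.82-fold, with an adjusted p = 0.000633. All 5 of its probe sets above the level filter were lower with progesterone, with differences between -1.72 and -0.91.

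Mevalonate kinase, encoded by Mvk, adds the first phosphate to mevalonate. Mvk had signals of 29.3 and 52.5 with progesterone, against 116 and 126 with TGFb1 alone, and fell by 1.30 ± 0.24 (adjusted p = 0.0168). The progesterone arrays were well apart from each other in this dim gene, and the gene no longer passed without progesterone replicate 1 (-1.0, adjusted p = 0.0695) or without a level filter (adjusted p = 0.0665). A fit without 1 progesterone array has 1 residual degree of freedom in place of 2 and takes the spread from the TGFb1 pair, the lone array being assumed to vary like that pair, so a call lost there need not mean a smaller difference. Phosphomevalonate kinase, encoded by Pmvk, performs the next step. Pmvk was at 122 and 117 with progesterone, against 198 and 158 with TGFb1 alone, a difference of -0.51 with a 95% interval from -0.90 to -0.13 that did not pass the test over all genes (adjusted p = 0.108). The groups did not overlap, and the interval spans a small as well as a sizeable reduction.

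Mvd encodes the decarboxylase that turns the phosphorylated mevalonate into isopentenyl diphosphate. Its signals were 70.7 and 128 with progesterone, against 259 and 207 with TGFb1 alone, and it fell by 1.15 ± 0.25 (adjusted p = 0.0318). The progesterone arrays again differed from each other, and the call was lost when progesterone replicate 1 was left out (-0.79, adjusted p = 0.126), without TGFb1 replicate 1 (-1.0, adjusted p = 0.0879), without a level filter (adjusted p = 0.0896) and without an intensity trend (adjusted p = 0.0933). The second probe set of Mvd lay at -1.62. Idi1, the isomerase gene that follows, was at 154 and 209 with progesterone, against 598 and 509 with TGFb1 alone. Idi1 fell by 1.54 ± 0.17 (adjusted p = 0.00249), and its 2 probe sets lay at -1.64 and -1.54.

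Fdps, whose product joins the isoprenoid units into farnesyl diphosphate, had the largest difference of the 26 genes. The signals of Fdps were 388 and 302 in the progesterone arrays, against 1919 and 1262 in the TGFb1 arrays. The TGFb1 arrays differed more from each other than the progesterone arrays did, yet the lowest of them was over 3 times the highest progesterone array. The gene fell by 2.13 ± 0.20, 4.39-fold (adjusted p = 0.00199), with a 95% interval from -2.61 to -1.66. Ggps1 encodes the enzyme that draws farnesyl diphosphate off towards geranylgeranyl diphosphate, used to attach lipid anchors to proteins, and is not a step towards sterol. Ggps1 did not pass, at 264 and 289 with progesterone, against 246 and 240 with TGFb1 alone. Its difference was 0.17, with a 95% interval from -0.12 to 0.47 (adjusted p = 0.453), and its 4 probe sets lay on both sides of 0, between -0.18 and 0.38. Its neighbour Fdps was thus lower by an interval that does not reach that of Ggps1, but the difference between the 2 genes was not itself tested.

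**Figure D3:**
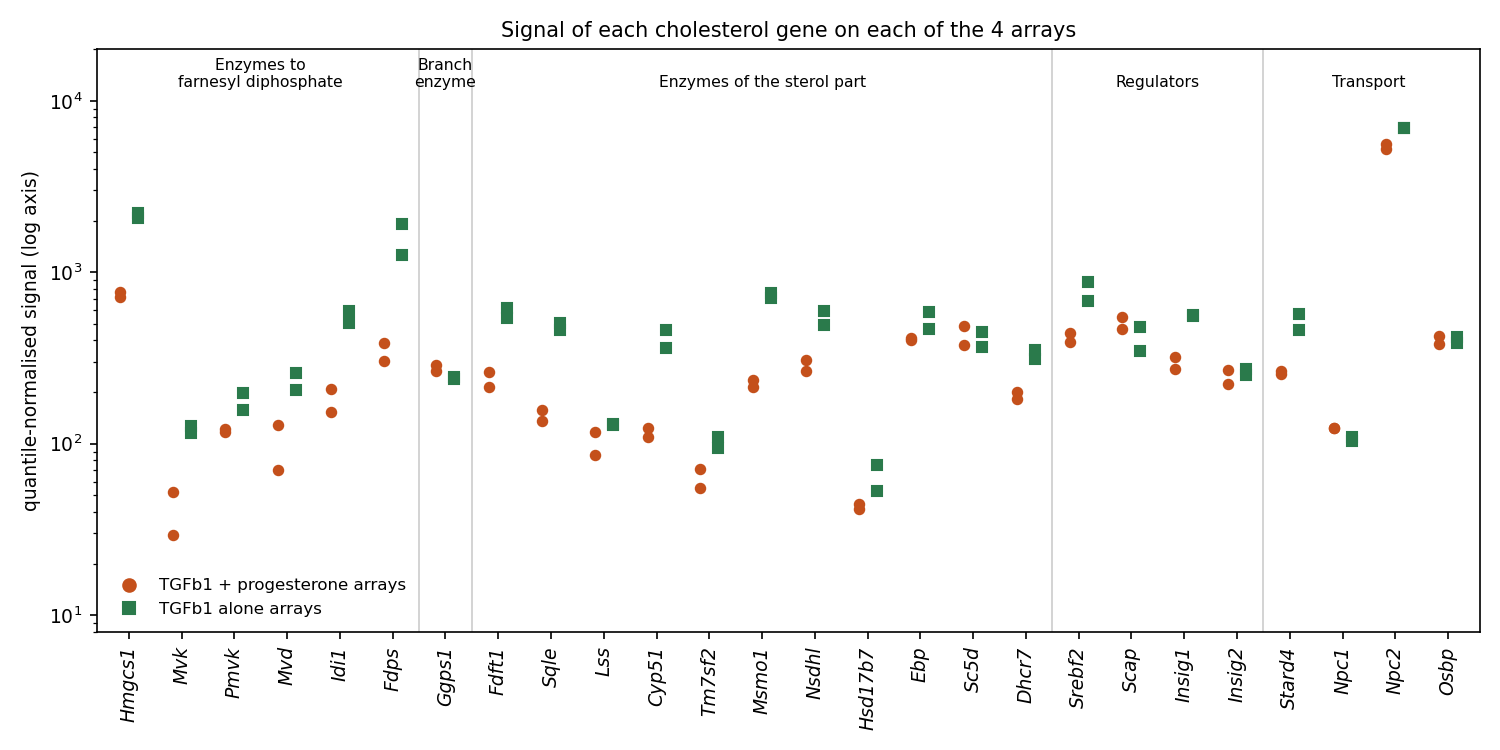
Quantile-normalised signal of each gene on each array, on a log axis, with TGFb1 plus progesterone (circles) left of TGFb1 alone (squares), 2 arrays each. Levels are comparable within a gene, not between genes, because probe sets differ in brightness; for Hmgcs1, Fdps, Sqle, Cyp51 and Msmo1 the circles lie clear of the squares, and for Sc5d, Scap, Insig2 and Osbp they overlap.

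In the sterol part of the pathway 6 of 11 genes fell, with a median of -0.76, and the falls included both squalene steps and the demethylation of lanosterol. Squalene synthase, encoded by Fdft1, makes the first compound committed to sterols. Fdft1 was at 262 and 215 with progesterone, against 615 and 541 with TGFb1 alone, and fell by 1.23 ± 0.14 (adjusted p = 0.00282). Sqle encodes squalene epoxidase, a rate-controlling enzyme of this part. Its signals were 136 and 157 in the progesterone arrays, against 505 and 458 in the TGFb1 arrays, with the members of each group close together, and Sqle fell by 1.62 ± 0.14, 3.07-fold (adjusted p = 0.00153).

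Lanosterol synthase, encoded by Lss, closes the sterol rings. Lss did not pass, at 86.3 and 117 with progesterone, against 130 and 129 with TGFb1 alone, a difference of -0.32 with a 95% interval from -0.75 to 0.10. Cyp51 encodes the demethylase that acts on lanosterol. Its signals were 123 and 110 with progesterone, against 460 and 361 with TGFb1 alone, and Cyp51 fell by 1.68 ± 0.16, 3.21-fold (adjusted p = 0.00199). Msmo1, the gene of the oxidase that starts removal of the C4 methyl groups, was at 236 and 213 with progesterone, against 754 and 710 with TGFb1 alone. Msmo1 fell by 1.64 ± 0.12, 3.11-fold (adjusted p = 0.00134). Nsdhl, the dehydrogenase gene that works in the same removal, was at 307 and 265 with progesterone, against 595 and 492 with TGFb1 alone. It fell less, by 0.89 ± 0.14 (adjusted p = 0.0102), and did not pass without progesterone replicate 2 (-0.79, adjusted p = 0.115).

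Among the remaining enzymes 1 fell, Dhcr7, which encodes the reductase of the last step in one of the routes to cholesterol. Dhcr7 was at 182 and 199 with progesterone, against 353 and 314 with TGFb1 alone, and fell by 0.76 ± 0.14 (adjusted p = 0.0152). The difference moved little without progesterone replicate 1 (-0.70, adjusted p = 0.121) or replicate 2 (-0.82, adjusted p = 0.102), but neither of these fits, each with a lone progesterone array, passed. Tm7sf2, a sterol C14 reductase gene, was at 55.4 and 71.3 with progesterone, against 109 and 94.1 with TGFb1 alone, a difference of -0.57 that did not pass (adjusted p = 0.128). Ebp, the sterol isomerase gene, was at 401 and 412 with progesterone, against 586 and 468 with TGFb1 alone. For Ebp the difference was -0.35, with a 95% interval from -0.67 to -0.04, and it did not pass (adjusted p = 0.168). In both genes both progesterone arrays lay below both TGFb1 arrays.

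Hsd17b7, the ketone reductase gene of C4 demethylation, was dim, at 44.6 and 41.5 with progesterone, against 75.4 and 53.3 with TGFb1 alone. Its difference of -0.43 did not pass (adjusted p = 0.289), and its other probe sets above the filter lay at -0.07 and -0.01, so its probe sets do not show a common difference. Sc5d encodes the desaturase that acts shortly before Dhcr7. Sc5d was at 486 and 376 with progesterone, against 446 and 365 with TGFb1 alone, and the groups overlapped. Its difference was 0.08, with a 95% interval from -0.30 to 0.45 (adjusted p = 0.811), and its other probe sets lay at 0.26 and 0.60, none of the 3 below 0.

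**Figure D4:**
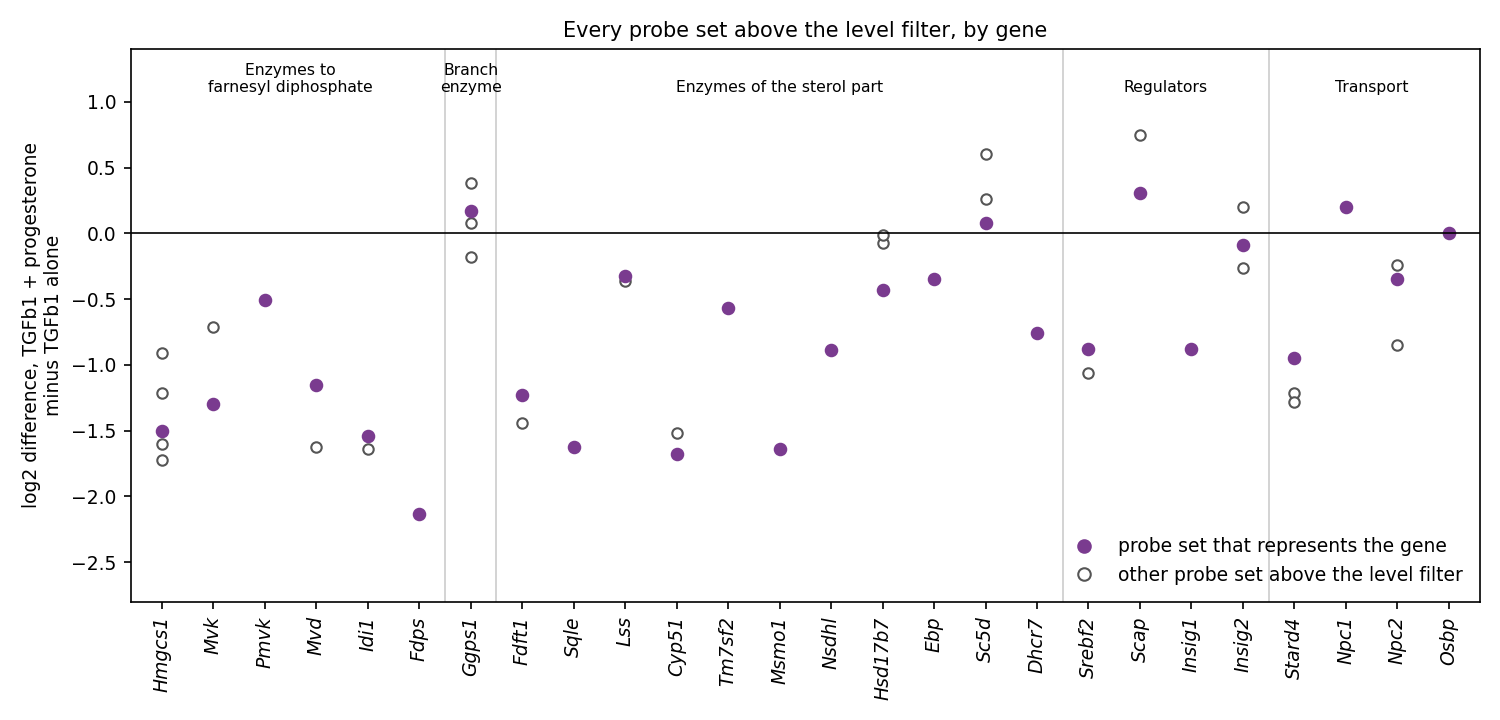
Log2 difference, TGFb1 plus progesterone minus TGFb1 alone, of each of the 51 probe sets above the level filter, with the one that represents the gene filled and the others open. For the 15 genes that fell all 29 probe sets lie below 0, 27 of them at -0.5 or lower, whereas those of Ggps1 and Insig2 lie on both sides of 0 and those of Sc5d and Scap lie above it.

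The 4 regulators divided evenly. Srebf2, the gene of SREBP2 and itself known to be switched on by SREBP2, was at 440 and 392 in the progesterone arrays, against 684 and 881 in the TGFb1 arrays. It fell by 0.88 ± 0.14 (adjusted p = 0.0117), and its second probe set lay at -1.06. The call for Srebf2 was lost when either progesterone array was left out (-0.96 with adjusted p = 0.057 without replicate 1, and -0.80 with adjusted p = 0.124 without replicate 2) and without an intensity trend (adjusted p = 0.0575). Scap, the escort gene, overlapped between groups at 468 and 552 with progesterone, against 347 and 479 with TGFb1 alone. Scap had a difference of 0.31, with a 95% interval from -0.09 to 0.70, and did not pass (adjusted p = 0.315).

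Insig1 and Insig2 encode related anchors of the SCAP complex, and Insig1 is known as a strong SREBP target. Insig1 was at 321 and 272 with progesterone, against 560 and 555 with TGFb1 alone, and fell by 0.88 ± 0.13, 1.84-fold (adjusted p = 0.00677). Without progesterone replicate 2 it was at -0.77 and did not pass (adjusted p = 0.0868). Insig2 overlapped between groups at 270 and 222 with progesterone, against 274 and 251 with TGFb1 alone. The difference of Insig2 was -0.09, with a 95% interval from -0.43 to 0.25 (adjusted p = 0.744), and its 3 probe sets lay between -0.26 and 0.20. That the 2 anchor genes differ in response was not tested directly.

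Of the transport genes, Stard4 and Npc2 fell. Stard4, a soluble sterol carrier and known SREBP2 target, was at 254 and 264 with progesterone, against 573 and 461 with TGFb1 alone. It fell by 0.95 ± 0.14 (adjusted p = 0.0075), and its other probe sets lay at -1.28 and -1.21, but it did not pass without progesterone replicate 1 (-0.92, adjusted p = 0.0624) or replicate 2 (-0.98, adjusted p = 0.0688). Npc2, the soluble lysosomal protein that hands cholesterol to NPC1, was at 5625 and 5235 with progesterone, against 6931 and 6931 with TGFb1 alone. This fall was the smallest of the 15, 0.35 ± 0.07 (adjusted p = 0.0202), and its other probe sets lay at -0.85 and -0.24. Npc2 did not pass when progesterone replicate 1 (-0.40, adjusted p = 0.102) or replicate 2 (-0.30, adjusted p = 0.261) was left out, with the values as deposited (-0.69, adjusted p = 0.0555), without a level filter (adjusted p = 0.0965) or without an intensity trend (adjusted p = 0.173).

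Npc1, the lysosomal membrane protein that works with Npc2, was at 123 and 124 with progesterone, against 109 and 103 with TGFb1 alone. Both progesterone arrays were slightly higher, but the difference of 0.20 did not pass (adjusted p = 0.491) and its 95% interval ran from -0.17 to 0.56. Osbp, which exchanges sterol between the endoplasmic reticulum and the Golgi, was at 425 and 380 with progesterone, against 419 and 387 with TGFb1 alone. The arrays of Osbp were interleaved, and the 95% interval of its difference ran from -0.29 to 0.28. Changes as large as the 2.82-fold fall of Hmgcs1 lie outside the intervals of Ggps1, Sc5d, Scap, Insig2, Npc1 and Osbp.

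Over the enzymes, the median departure from the TGFb1 mean was -0.96 and -0.89 in the progesterone arrays, against 0.10 and -0.10 in the TGFb1 arrays. For regulators and transport genes the same medians were -0.13 and -0.31 with progesterone, against 0.02 and -0.02 with TGFb1 alone. Leaving out progesterone replicate 1 left 9 of the 26 genes down, and leaving out progesterone replicate 2 also left 9, among them 8 and 9 enzymes and 1 and 0 regulators or transport genes. The 7 genes Hmgcs1, Idi1, Fdps, Fdft1, Sqle, Cyp51 and Msmo1 fell in all 16 alternative settings that were run, including each array left out.

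Further genes of the pathway are those for precursor supply and isoprenoid branches, for SREBP processing and sterol-regulated degradation, and for other sterol transport and storage. Of 46 tested, 4 fell and 1 rose, with a median of 0.06. Over all genes tested, 5.17% fell and 2.99% rose, with a median of 0.02. Of 15 genes listed under precursor supply and isoprenoid branches 14 did not pass. The 1 that fell was Lbr, which encodes a nuclear envelope protein that is also a sterol C14 reductase. That step, shared with Tm7sf2, belongs to the sterol part of the pathway. Lbr was at 2689 and 2740 with progesterone, against 3981 and 3985 with TGFb1 alone (-0.55 ± 0.07, adjusted p = 0.00451). The Lbr call was lost without progesterone replicate 1 (-0.54, adjusted p = 0.0628), without replicate 2 (-0.56, adjusted p = 0.0708) and without an intensity trend (adjusted p = 0.0685). Of 10 genes of SREBP processing and degradation 1 was lower and 3 were higher at an unadjusted p under 0.05 by limma. Of all 10501 genes tested 1290 were lower and 1234 higher at that cut. After adjustment none of the 10 fell and Rnf145 rose, a ubiquitin ligase gene whose product is known to act on sterol regulators. Its signals were 2897 and 2871 with progesterone, against 2001 and 1981 with TGFb1 alone (0.53 ± 0.08, adjusted p = 0.00665). The Rnf145 call was lost on the signals as deposited (0.08, adjusted p = 0.887), after median centring of the arrays (0.26, adjusted p = 0.152), without an intensity trend (adjusted p = 0.074), and without progesterone replicate 1 (0.52, adjusted p = 0.0912) or replicate 2 (0.54, adjusted p = 0.107).

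Of 21 other transport and storage genes 3 fell, all of the OSBP-related family of lipid carriers, where 5.17% of all genes tested fell. At an unadjusted p under 0.05 by limma 4 of the 21 were lower and 2 higher. Over all 10501 genes tested, 1290 were lower and 1234 higher at that cut. Tmem97, which is not of that family, was among the 4 (-1.09, adjusted p = 0.0773), and Vapb (0.51) and Stard5 (0.40) were the 2 higher. Osbpl3 was at 199 and 156 with progesterone, against 496 and 430 with TGFb1 alone, and fell by 1.31 ± 0.16 (adjusted p = 0.00312). Osbpl5 was dim, at 6.67 and 34.5 with progesterone, against 79.0 and 105 with TGFb1 alone (-1.66 ± 0.38, adjusted p = 0.0369). Its mean log2 level with progesterone, 5.08, lay under the level floor of 5.32, and the call was lost in 8 of the 15 alternatives in which Osbpl5 was tested, with adjusted p-values from 0.0518 to 0.11. The difference of Osbpl5 was -1.09 without progesterone replicate 1 and -2.24 without replicate 2. Osbpl9 was at 949 and 870 with progesterone, against 1262 and 1169 with TGFb1 alone (-0.41 ± 0.10, adjusted p = 0.0465), and the call was lost in 7 of 16 alternatives, with adjusted p-values from 0.0538 to 0.505, the highest being that of the mean of its probe sets (-0.14). The list holds 7 tested members of that family in all, so 4 did not pass.

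Other measures moved with the groups. Before normalisation the arrays differed in the distribution of their signals. Trimmed means were 137.7 and 107.7 in the progesterone arrays, against 154.5 and 145.3 in the TGFb1 arrays. Median signals ran the other way, at 29.9 and 24.4 with progesterone, against 23.6 and 23.5 with TGFb1 alone. Xist, the RNA that coats the silenced X of female cells, was at 1432 and 1107 with progesterone, against 10.6 and 10.8 with TGFb1 alone. The Y-linked gene Eif2s3y was at 3.32 and 0.502 with progesterone, against 596 and 671 with TGFb1 alone, and the Y-linked genes Kdm5d and Uty were likewise far lower with progesterone, so the treatment cannot be told apart from the sex of the cells in any comparison above. Nsdhl and Ebp lie on the X chromosome and the other 24 measured genes do not. Of 11 proliferation genes 9 fell, with a median of -2.64. Over all genes tested, 5.17% fell and the median was 0.02. The 2 proliferation genes that did not pass by limma were Pcna and Mcm2, and Mcm2 overlapped between groups (-0.07, adjusted p = 0.783). Top2a, a topoisomerase gene of dividing cells, was at 675 and 342 with progesterone, against 3406 and 2675 with TGFb1 alone, and the replication clamp gene Pcna was at 2472 and 2190 with progesterone, against 4278 and 2974 with TGFb1 alone, a difference that did not pass (adjusted p = 0.0601). The part of proliferation in the lower cholesterol genes was not tested.

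The label CD4+ T cells was checked on 8 of its 9 listed markers, all above the level filter. Their summed signal was 31123 and 31567 in the progesterone arrays, against 31506 and 33135 in the TGFb1 arrays, none of the 8 passed by limma, and Cd3d was brightest. At an unadjusted p under 0.05 in that fit 3 were lower and 0 higher, beside 1290 lower and 1234 higher of all 10501 genes tested. Cd4 itself was 1 of the 3, at 1681 and 1670 with progesterone, against 1961 and 2290 with TGFb1 alone (-0.34, adjusted p = 0.0843). Myeloid markers summed to 876 and 1019 with progesterone, against 365 and 199 with TGFb1 alone. Lyz2, the only 1 of 5 tested that rose, made up 685 and 771 of these sums with progesterone, against 173 and 54.1 with TGFb1 alone. At an unadjusted p under 0.05 in that fit 2 of the 5 were higher, Lyz2 and Cd68 (0.66, adjusted p = 0.101), and 0 lower. Itgam was the only 1 of the 5 with a difference below 0 (-0.81), and it did not pass by limma (adjusted p = 0.255). The platelet markers Pf4 and Ppbp both rose, with summed signals of 628 and 821 with progesterone, against 101 and 51.5 with TGFb1 alone. Pf4 made up 578 and 776 of these sums with progesterone, against 87.5 and 43.8 with TGFb1 alone. The mean log2 level of Ppbp with TGFb1 alone, 4.73, lay under the level floor of 5.32. Ppbp thus passed the filter only through the progesterone arrays and adds little to Pf4. The call for Lyz2 was lost without progesterone replicate 2 (adjusted p = 0.0597), and that for Ppbp in 4 of 15 alternatives. Of 2 tested B cell markers and 2 CD8 T cell markers none passed by limma (0 at an unadjusted p under 0.05). The mast cell marker Cpa3 was at 545 and 719 with progesterone, against 965 and 648 with TGFb1 alone. These signals lay well above the level floor on all 4 arrays, and their difference did not pass by limma (adjusted p = 0.372). The mast cell markers Mcpt4 and Tpsb2 lay under the level filter. So did all NK cell, red cell and fibroblast markers with a probe set. What these cells contribute to the cholesterol genes was not tested, and fewer cells of a type cannot be told apart from less RNA per cell.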

How the data were processed

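RNA from 4 samples was measured on arrays of 45101 probe sets. The submitters' processing notes name MAS5 as the source of the intensity that the authors deposited, a linear signal per probe set, and its version and scaling are not given in the sources used here. The number of arrays limits the precision. The 64 control probe sets were left out. The trimmed means (2% off each end) differed 1.43-fold, above the 5% allowed, so signals were quantile normalised and taken as log2(signal + 16). Probe sets above the median level were kept (22518), which excludes none of the 26 measured genes. Of the 45037 other probe sets, 34945 carried 1 symbol, 932 several and 9160 none. Symbols and chromosomes were taken from RefSeq (GRCm38.p6) through the Entrez identifier (34741 matched), and promoter sequences came from RefSeq of the same build.

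The test was limma's (version 3.58.1, R 4.3.3; eBayes with an intensity trend, no covariate), with p-values adjusted by Benjamini-Hochberg over 10501 genes. With 2 arrays a group an exact permutation test over samples cannot reach the threshold and was not used. The test of progesterone against TGFb1 alone was run on simulated arrays of these 10501 genes, of which 200 were set as changed. It recovered 14.2% of genes changed 1.5-fold, 54.6% changed 2-fold and 96.0% changed 4-fold. Of the calls it made, 5.58% were false. The data had more calls, 857, and recovery with another number of changed genes was not simulated. All members are named, with those of the further lists that passed without overlap, the 2 brightest proliferation genes, the brightest marker of a list and fixed sex chromosome genes. A few others, such as Tmem97, Mcm2, Cd4, Cd68 and Itgam, are named to show the limits of a count. The members, lists and tests were chosen with earlier results of these data known. Alternatives were other scalings, pseudocounts, filters, variance models and probe set rules, the replicate number as a block, and each array left out with probe sets and filter kept.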

Additional observations from a re-analysis of the deposited data

How the results depend on the processing

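All 15 genes that fell kept a difference below 0 in each of the 16 alternatives in which they were tested. The count of genes down, 15 with 11 enzymes and 4 regulators or transport genes, lay between 9 and 16 when an array was left out, between 8 and 12 for enzymes and between 0 and 4 for regulators and transport genes. Without an intensity trend 12 fell, 2 of them regulators or transport genes, and without a level filter 12 fell. Over all genes 857 changed, against 464 without a trend, 488 without a filter and 234 to 1155 with an array left out. The 5 further pathway genes that changed were 3 with each array centred on the median of its kept probe sets, 3 without a filter, 3 in the upper 25% by level, 1 without a trend and 1 to 6 with an array left out. With the replicate number as a block 1936 genes changed, 11 of them further pathway genes, and 17 of the 26 genes fell, Pmvk (adjusted p = 0.0309) and Ebp (adjusted p = 0.0454) being added. The numbers are shared labels only, and deviations of same-numbered arrays correlated at 0.205 across genes. With 2 pairs this says little.

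As deposited the median of all genes was -0.22 and 145 genes rose and 794 fell, against 314 and 543 after quantile normalisation. The median of the 26 genes was then -1.10, and Ggps1 was at -0.10, Sc5d at -0.24 and Scap at -0.02, turned in sign but not passing. Sc5d was also at -0.05 with that centring. With an array left out, Sc5d lay between -0.10 and 0.26, Insig2 between -0.23 and 0.04 and Osbp between -0.08 and 0.07, with no call. The cause of these shifts was not tested. Of the 26 genes Mvd, Mvk and Hsd17b7 had the widest standard errors (0.25, 0.24 and 0.22).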
